A study of Ovis aries with 32 samples.

Results

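The 2-oxoglutarate dioxygenases are enzymes that use oxygen, ferrous iron and 2-oxoglutarate to hydroxylate or demethylate a substrate, and that release succinate as a product. They were followed here in the transcriptomes of Tan sheep, a Chinese fat-tailed breed, fed succinic acid. Members were chosen by name from a list of 45 such genes, and no level or test enters that rule, although the list was drawn up with earlier results of these data known. Of these, 44 were found by name in a table of 30722 genes, and KDM2B, a JmjC demethylase, was not analysed here. By role they were 3 TET enzymes of DNA, 14 JmjC histone demethylases, 9 ALKBH and FTO demethylases of nucleic acids and related proteins, 4 hydroxylases of the hypoxia-inducible factor HIF, 6 collagen hydroxylases, 5 other protein hydroxylases and 3 enzymes of small molecules.

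Succinate is the product of all these reactions and competes with 2-oxoglutarate for the active site, so that a high ratio of succinate to 2-oxoglutarate slows the enzymes. In cells that lack succinate dehydrogenase this is known to stabilise HIF and to raise DNA and histone methylation. The inhibition acts on the protein, and transcript levels do not report enzyme activity. In liver, members of the family make carnitine and start the breakdown of phytanic acid, and in connective tissue others hydroxylate collagen.

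The study fed 24 male Tan sheep aged 3 months, 12 on each diet and housed singly, for 60 days after 10 days of adaptation. The SA group ate a basal diet with succinic acid at 1% of dry matter, and the CON group ate the basal diet alone. RNA from 4 sheep per diet was sequenced from tissue labelled hypothalamus, tissue labelled pituitary, liver and tail fat, which gave 32 libraries in 8 groups of 4. No genotype or further agent is given for either group, and which libraries of different tissues came from one sheep is not labelled. Whether anything but the animal separates the libraries of a group is not stated, so the p-values measure the spread between these samples. The values are TPM, a transcript level corrected for length and scaled to a fixed total per library, so that genes can be compared within a library. Read depth is unknown.

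The libraries differed in ways that bear on every result. Mitochondrially encoded genes held 52.5 to 71.0% of TPM in SA livers, against 20.2 to 27.9% in CON livers, and ribosomal RNA held 1.12 to 5.99% in SA livers, against 0.235 to 0.789% in CON livers. In the SA livers 10216 to 10611 genes reached 1 TPM, against 11504 to 12057 in the CON livers. The markers of several liver cell types were lower together: the summed hepatocyte markers were 8189 to 33292 TPM in SA livers, against 102695 to 123185 TPM in CON livers, and the summed endothelial markers were 9.96 to 19.8 TPM in SA livers, against 83.3 to 110 TPM in CON livers. Mitochondrial genes held 36.7 to 68.8% in the pituitary-labelled SA libraries, against 41.3 to 45.02% in CON, with the highest share in SA replicate 4. In tail fat they held 25.7 to 50.7% in SA libraries, against 22.6 to 70.8% in CON libraries. Another property split the libraries more sharply. SELENOP, the selenium carrier of plasma, had 241 to 773 TPM in SA livers, against 4282 to 5758 TPM in CON livers, and CCDC152, its neighbour in RefSeq's annotation of the Rambouillet sheep assembly, had 168 to 842 TPM in SA livers and was listed at 0 in each CON liver. In tail fat CCDC152 was at 0.07 TPM in SA replicate 1 and 0.12 TPM in CON replicate 2, against 148 to 186 TPM in the other SA libraries and 57.8 to 162 TPM in the other CON libraries. Those 2 libraries also had the most SELENOP, at 598 TPM in SA replicate 1 and 972 TPM in CON replicate 2, and the lowest mitochondrial shares of their groups. CCDC152 reached at most 0.08 TPM in the brain libraries. In liver this split and the diet cannot be told apart, and among CON libraries CCDC152 stood above that level only in tail fat. The part of these shares and markers in the results was otherwise not tested. In bulk tissue, fewer cells of a type and less RNA per cell cannot be told apart.

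The labelled liver expressed its marker albumin (ALB), at a mean of 13260 TPM in SA and 58437 TPM in CON livers. In the tissue labelled pituitary the hormone genes of the anterior lobe were at or near 0: prolactin (PRL) averaged 0.448 TPM in SA and 0.068 TPM in CON libraries, TSHB averaged 0.115 TPM in SA and 0.022 TPM in CON libraries, and CGA and FSHB were at 0 in every library. The 10 anterior pituitary markers found, of 11 listed, summed to 77.9 to 295 TPM in SA and 234 to 276 TPM in CON libraries, of which CHGA, a gene of neurons and endocrine cells alike, made up 71.3 to 291 TPM in SA and 226 to 273 TPM in CON libraries. The 10 hypothalamic peptide markers found, of 11 listed, summed to 41.7 to 55.4 TPM in SA and 35.5 to 54.7 TPM in CON libraries labelled hypothalamus, against 11.6 to 40.01 TPM in SA and 10.06 to 16.98 TPM in CON libraries labelled pituitary. NPY, which neurons of cortex and striatum also make, held 31.3 to 41.8 TPM of that sum in SA and 27.2 to 44.3 TPM in CON libraries labelled hypothalamus, whereas vasopressin (AVP) averaged 0.472 TPM in SA and 0.352 TPM in CON libraries there. The striatal gene PPP1R1B averaged 1529 TPM in SA and 1496 TPM in CON libraries labelled hypothalamus. Both tissues are called by their labels only, and together brain tissue.

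In CON animals the family was expressed at a median of 10.3 TPM in the hypothalamus-labelled tissue, 12.7 TPM in the pituitary-labelled tissue, 6.77 TPM in liver and 5.76 TPM in tail fat. Over all genes with a mean of 1 TPM or more the median was 10.6, 11.4, 7.31 and 6.6 TPM in the same order. PHYH had the highest mean level of all members in liver and in tail fat on both diets. TET1 was at or below 1.56 TPM in every library.

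**Figure D1:**
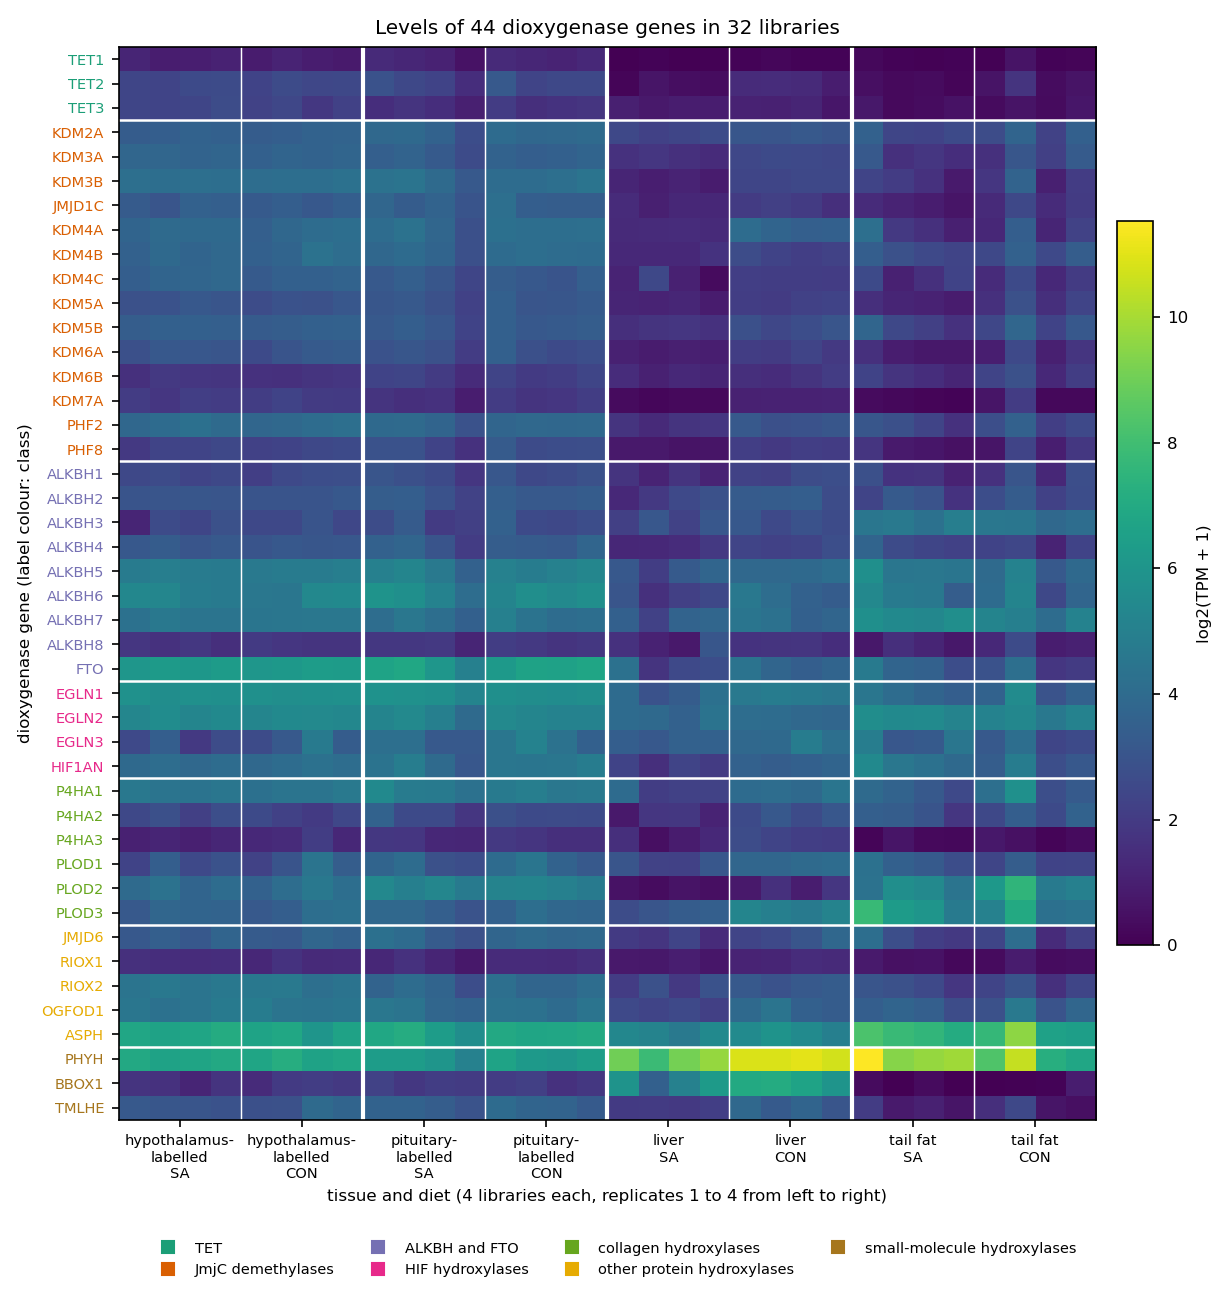
Level of each of the 44 members in each of the 32 libraries, as log2(TPM + 1), with members ordered by role. In each tissue the SA libraries lie left of the CON libraries. PHYH and BBOX1 were high in liver, FTO in the brain tissues, and most members were lower in SA than in CON livers.

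The diet comparison asked whether succinic acid changed any of these transcripts in each tissue. In liver 32 of the 41 members tested were lower in SA than in CON animals and 0 were higher (limma on log2(TPM + 1), Benjamini-Hochberg adjusted p under 0.05). This count stands against a liver in which 64.3% of all 11582 genes tested passed, 59.1% lower and 5.21% higher. The median log2 difference was -1.04 over the members and -0.83 over all genes tested. TET1, TET2 and PLOD2 did not pass the filter of 1 TPM in 4 libraries. Of the members that fell, KDM7A, PHF8 and RIOX1 reached 1 TPM in no SA liver and KDM6A, KDM3B, P4HA3, KDM5A and P4HA2 in some only, so that these entered the test through the CON livers and their calls are a description.

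How many members fell in liver depended on how the libraries were put on one scale. Quantile scaling, which gives each library the same distribution, left 10 members lower and 2 higher of 41, against 21.1% of all genes lower and 16.3% higher, with a median over all genes of -0.09. The 10 were KDM3B, KDM4A, KDM6A, KDM7A, PHF2, PHF8, HIF1AN, PLOD3, PHYH and TMLHE, and the 2 were EGLN2 and TET3. Removing mitochondrial and ribosomal RNA and rescaling the rest left 6 lower and 1 higher of 43, against 12.6% of all genes lower and 15.9% higher, with a median over all genes of 0.03. Lower in deposited TPM and under both of these were the histone demethylase KDM4A, the phytanic acid enzyme PHYH and the collagen lysyl hydroxylase PLOD3, each at 1 TPM or more in all 8 livers. KDM3B, KDM7A and PHF8 were also lower under each, with the limit that the filter let them in through the CON livers. Relative to the median of all genes in deposited TPM, KDM4A differed by -1.47, PHYH by -1.12 and PLOD3 by -1.04 on the log2 scale. EGLN2 was the only member above 0 and past the threshold under both other scalings (log2 differences 0.93 and 1.06), and its difference in deposited TPM was -0.01. Below, a liver gene that fell did so in deposited TPM, and held under the other scalings only where that is said.

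**Figure D2:**
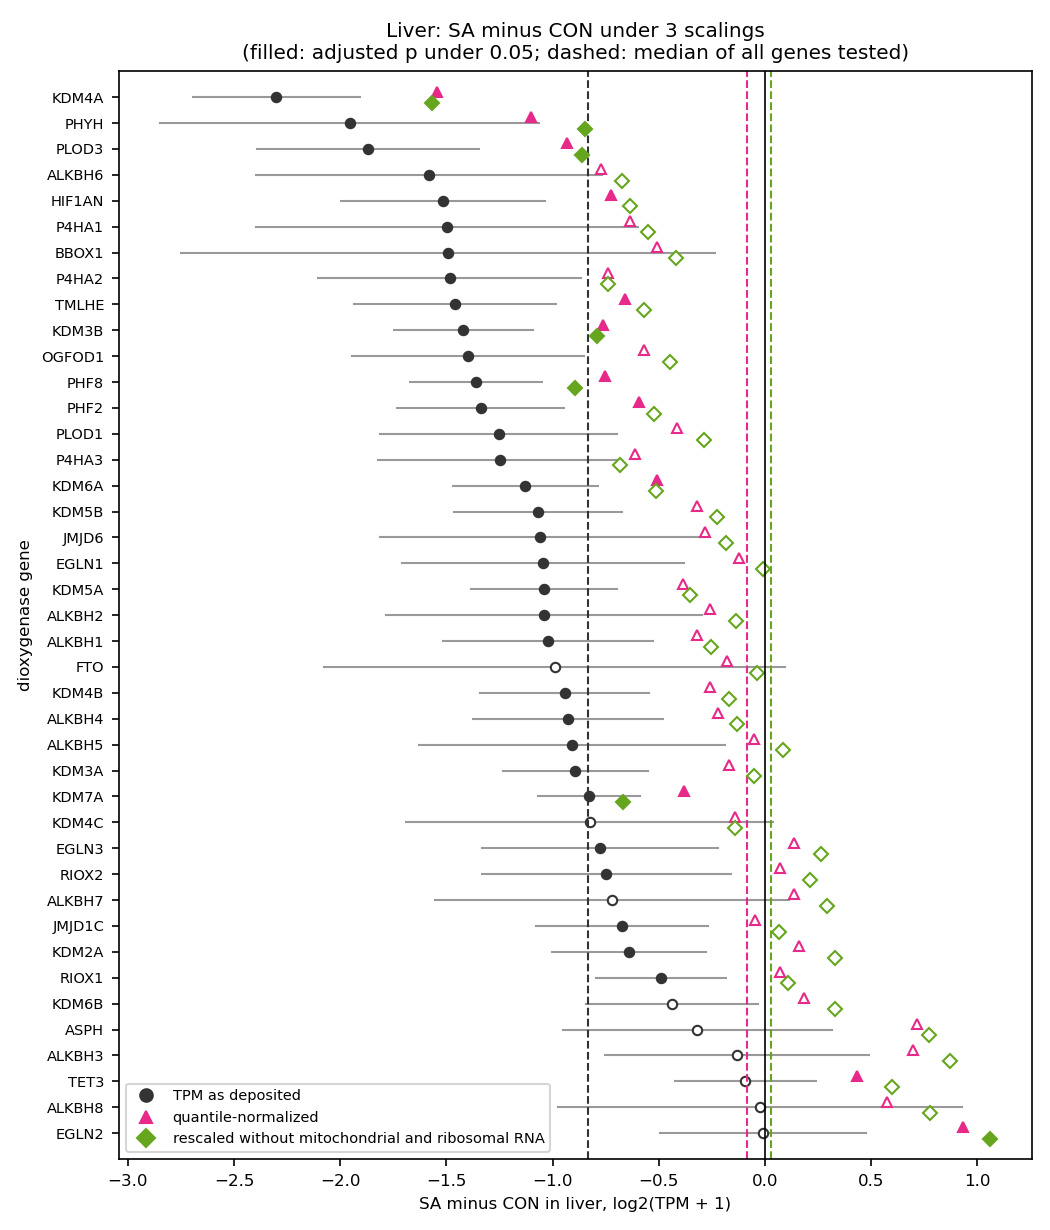
Log2 difference between SA and CON livers for the 41 members tested, in deposited TPM, after quantile scaling and without mitochondrial and ribosomal RNA; filled points passed an adjusted p of 0.05. The 32 filled points in deposited TPM lie below 0, and most shift toward or past 0 under the other scalings, while EGLN2 moves to 0.93 and 1.06.

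In tail fat 0 of the 36 members tested passed, in a tissue in which 0.697% of all 11185 genes did, 0.277% higher and 0.42% lower (limma). At an unadjusted p under 0.05, 2 of the 36 members were found, against 14.3% of all genes. TET1, TET2, TET3, KDM7A, PHF8, P4HA3, RIOX1 and BBOX1 did not pass the filter. In the hypothalamus-labelled tissue 0 of 43 members passed, with a smallest adjusted p of 0.947 and 0 at an unadjusted p under 0.05, and in the pituitary-labelled tissue 0 of 44 passed, with a smallest adjusted p of 0.747 and 0 at an unadjusted p under 0.05. Over all genes tested 0% passed in either, and 3.49% and 1.51% had an unadjusted p under 0.05 in the hypothalamus-labelled and the pituitary-labelled tissue. The members' median log2 difference was 0.00 in the hypothalamus-labelled tissue, -0.30 in the pituitary-labelled tissue and -0.05 in tail fat, and over all genes it was 0.02, -0.27 and -0.06 in the same order. Many members were lowest in pituitary-labelled SA replicate 4, the library with the highest mitochondrial share.

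Among the enzymes of small molecules, PHYH hydroxylates phytanoyl-CoA in the peroxisome and so starts the removal of the branched fatty acid that grazing animals obtain from chlorophyll. PHYH had 513, 227, 558 and 815 TPM in SA livers, against 1862, 1847, 2081 and 1686 TPM in CON livers. Every SA liver lay below every CON liver, and PHYH fell by 1.96 on the log2 scale (SE 0.40, adjusted p = 0.00206), and this held under each scaling. PHYH also had 2929, 693, 820.2 and 942 TPM in SA tail fat, against 321, 1468, 148 and 113 TPM in CON tail fat. There the groups overlapped because CON replicate 2 exceeded 3 of the SA libraries. The log2 difference was 1.91 with an interval of 0.40 to 3.42, and it did not pass (adjusted p = 0.249). Without CON replicate 2 it was 2.67 with an adjusted p of 0.0129, and with it kept the fit of all 32 libraries and array weights also passed (adjusted p = 0.00919 and 0.00343), so the call depended on the library and on the fit. Array weights called many more tail fat genes than the 78 of the main fit. The fit of all 32 libraries pools 1 spread over the tissues. PHYH had 116 ± 20.1 TPM in hypothalamus-labelled CON libraries, against 512 ± 643 TPM in CON tail fat (SD, n = 4 each), so that p does not measure the spread of tail fat alone. CON replicate 2 and SA replicate 1 are the tail fat libraries that stood apart in CCDC152, SELENOP and mitochondrial share. Without both CON replicate 2 and SA replicate 1, PHYH averaged 818 ± 124 TPM in SA and 194 ± 111 TPM in CON tail fat (SD, n = 3 each), with a log2 difference of 2.21 and an adjusted p of 0.000478. The settings that leave out libraries were chosen with earlier results of these data known.

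The brain tissues gave no such difference in PHYH. It had 123, 98.9, 104 and 123 TPM in the hypothalamus-labelled SA libraries, against 109, 145, 98.8 and 112 TPM in CON. It had 81.7, 80.8, 62.7 and 31.9 TPM in the pituitary-labelled SA libraries, against 102, 74.6, 65.99 and 85.1 TPM in CON. Both pairs of groups overlapped. In CON tail fat the summed adipocyte markers and PHYH were both highest in replicate 2 and next in replicate 1. In SA tail fat the markers were highest in replicate 2, where PHYH was lowest. The marker sums were 45434, 60994, 42086 and 11018 TPM in SA replicates 1 to 4, against 26823, 75503, 11282 and 12035 TPM in CON replicates 1 to 4. The part of adipocyte content in the tail fat values was not tested.

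BBOX1 and TMLHE carry out the last and the first step of carnitine synthesis from trimethyllysine, which the liver makes for the transport of fatty acids into mitochondria. BBOX1 had 59.1, 10.6, 32.01 and 76.1 TPM in SA livers, against 128, 135, 102 and 60.8 TPM in CON livers. The groups overlapped in that CON replicate 4 lay below the highest SA liver. The log2 difference was -1.49 (SE 0.56, adjusted p = 0.0402), and the call was lost without SA replicate 2 or 3 or without CON replicate 1, 2 or 3, over which the difference lay between -1.49 and -0.94. TMLHE had 2.93, 3.06, 2.76 and 3.36 TPM in SA livers, against 13.6, 8.71, 11.9 and 7.13 TPM in CON livers. It did not overlap between the groups and fell by 1.46 (SE 0.21, adjusted p = 0.000316).

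Outside liver BBOX1 was low, and no difference that was tested passed for either gene. TMLHE averaged 9.77 TPM in hypothalamus-labelled and 12.0 TPM in pituitary-labelled CON libraries, against 10.35 TPM in CON livers. BBOX1 had 2.29, 2.09, 1.3 and 2.36 TPM in the hypothalamus-labelled SA libraries, against 1.7, 2.94, 3.3 and 2.77 TPM in CON. It also had 3.86, 2.67, 3.25 and 2.95 TPM in the pituitary-labelled SA libraries, against 3.11, 3.51, 2.13 and 2.68 TPM in CON. The groups overlapped, with log2 differences of -0.28 in the hypothalamus-labelled and 0.12 in the pituitary-labelled tissue (adjusted p = 0.947 and 0.811), among the 3 smallest p below 0 in the first and above 0 in the second. In tail fat BBOX1 stayed under 1 TPM in all 8 libraries. TMLHE had 8.23, 7.35, 7.16 and 6.39 TPM in the hypothalamus-labelled SA libraries, against 6.06, 6.21, 14.8 and 11.9 TPM in CON. It had 11.4, 11.3, 9.59 and 6.69 TPM in the pituitary-labelled SA libraries, against 15.3, 12.2, 11.8 and 8.64 TPM in CON. TMLHE also had 3.15, 0.78, 1.09 and 0.56 TPM in SA tail fat, against 1.93, 4.58, 0.59 and 0.38 TPM in CON tail fat. The diet groups of each of these tissues overlapped for TMLHE, with log2 differences of -0.29, -0.27 and -0.14 in the hypothalamus-labelled tissue, the pituitary-labelled tissue and tail fat.

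**Figure D3:**
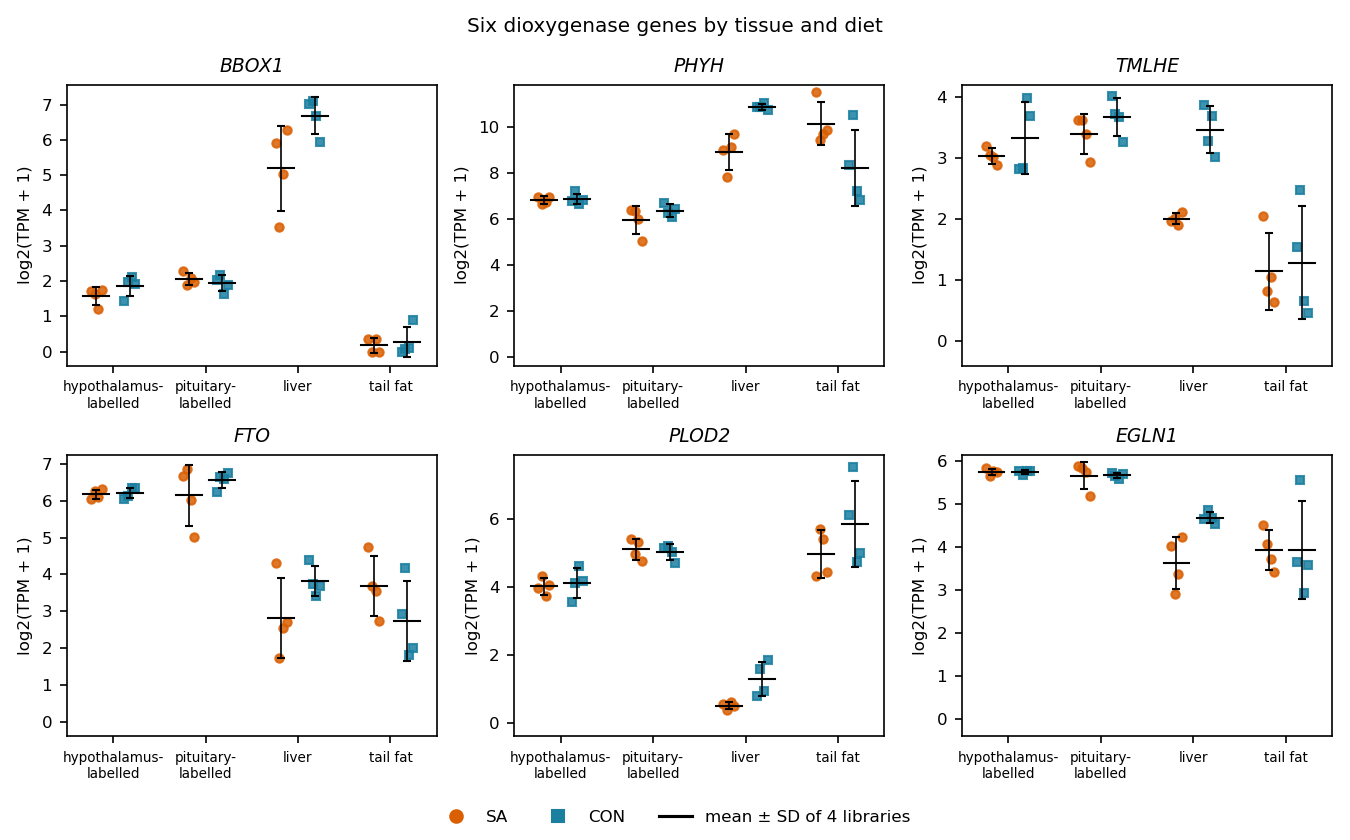
Level of BBOX1, PHYH, TMLHE, FTO, PLOD2 and EGLN1 in each library as log2(TPM + 1), by tissue, with SA (circles) left of CON (squares) and the bars giving mean ± SD of 4 libraries. BBOX1 was highest in liver and FTO in the brain tissues, PLOD2 was lowest in liver, and the SA livers lay below the CON livers for PHYH, TMLHE and EGLN1.

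The HIF hydroxylases are the oxygen sensors of the family. EGLN1, EGLN2 and EGLN3 are prolyl hydroxylases that mark HIF alpha subunits for destruction through VHL, and HIF1AN is the asparaginyl hydroxylase that blocks their transcriptional activity. In liver 3 of the 4 fell, against 59.1% of all genes tested. HIF1AN had 4.01, 1.89, 4.14 and 2.97 TPM in SA livers, against 11.03, 9.67, 10.7 and 12.1 TPM in CON livers. No SA liver reached the lowest CON liver, and HIF1AN fell by 1.52 (SE 0.21, adjusted p = 0.00028). EGLN1, the main HIF prolyl hydroxylase in most tissues, had 15.2, 6.56, 9.3 and 17.9 TPM in SA livers, against 23.9, 27.9, 24.7 and 22.4 TPM in CON livers. Its groups did not overlap either, and it fell by 1.04 (SE 0.30, adjusted p = 0.0115).

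EGLN3, itself a HIF target gene, had 9.8, 8.13, 10.9 and 10.8 TPM in SA livers, against 13.8, 14.1, 27.6 and 17.6 TPM in CON livers. The groups did not overlap and it fell by 0.78 in deposited TPM (SE 0.25, adjusted p = 0.02), but its difference was 0.14 after quantile scaling and 0.26 upon removal of mitochondrial and ribosomal RNA, and the call was lost without CON replicate 3 (-0.57). EGLN2 had 15.2, 14.2, 11.03 and 19.9 TPM in SA livers, against 16.4, 16.1, 14.03 and 13.1 TPM in CON livers. These groups overlapped, with a log2 difference of -0.01 and an interval of -0.49 to 0.48, which turned to 0.93 after quantile scaling. Within a library the ratio of EGLN1 to EGLN2 had a median of 0.873 in SA and 1.72 in CON livers.

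In tail fat the 4 differences ran from 0.00 to 1.02 and none passed. HIF1AN had 43.7, 22.5, 18.8 and 14.2 TPM in SA tail fat, against 9.58, 27.6, 5.89 and 8.07 TPM in CON tail fat. CON replicate 2 lay above 3 SA libraries, and the log2 difference was 1.02 (interval -0.12 to 2.15, adjusted p = 0.404). EGLN1 had 21.8, 15.7, 12.2 and 9.78 TPM in SA tail fat, against 11.5, 46.02, 6.68 and 10.9 TPM in CON tail fat. EGLN2 had 49.02, 43.9, 44.8 and 34.3 TPM in SA tail fat, against 33.9, 38.9, 23.4 and 33.6 TPM in CON tail fat. EGLN3 had 28.7, 7.7, 8.71 and 22.1 TPM in SA tail fat, against 8.3, 16.6, 4.29 and 4.92 TPM in CON tail fat. The groups overlapped for each, and for EGLN1 CON replicate 2 was above every other library of both groups.

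In the brain tissues no HIF hydroxylase passed, and the log2 differences of EGLN1 were 0.00 in the hypothalamus-labelled and -0.01 in the pituitary-labelled tissue. EGLN1 had 55.9, 49.5, 53.8 and 52.2 TPM in the hypothalamus-labelled SA libraries, against 53.9, 50.02, 53.1 and 53.6 TPM in CON. It also had 57.8, 55.7, 52.7 and 35.4 TPM in the pituitary-labelled SA libraries, against 51.8, 49.6, 46.9 and 51.2 TPM in CON. EGLN2 had 37.8, 46.9, 37.1 and 43.03 TPM in the hypothalamus-labelled SA libraries, against 37.3, 43.2, 41.96 and 39.8 TPM in CON. These 3 pairs of groups overlapped. EGLN2 had 35.1, 42.3, 30.6 and 14.6 TPM in the pituitary-labelled SA libraries, against 41.7, 37.2, 33.5 and 33.5 TPM in CON. HIF1AN had 14.4, 16.2, 13.8 and 15.97 TPM in the hypothalamus-labelled SA libraries, against 13.8, 16.01, 18.6 and 16.5 TPM in CON. HIF1AN had 19.97, 28.1, 14.9 and 7.74 TPM in the pituitary-labelled SA libraries, against 21.7, 20.99, 21.7 and 27.2 TPM in CON. SA replicate 4 was the lowest library for EGLN1, EGLN2 and HIF1AN in the pituitary-labelled tissue. EGLN3 had 4.89, 9.9, 2.76 and 5.37 TPM in the hypothalamus-labelled SA libraries, against 5.13, 8.16, 25.2 and 9.15 TPM in CON, and the mean of CON rested on replicate 3. EGLN3 had 17.4, 17.4, 8.41 and 8.21 TPM in the pituitary-labelled SA libraries, against 22.3, 33.9, 19.6 and 10.4 TPM in CON. EGLN3 was among the 3 members with the smallest p below 0 in both brain tissues, at log2 differences of -0.82 (adjusted p = 0.947) and -0.67 (adjusted p = 0.747), and passed in neither.

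The collagen hydroxylases act in the endoplasmic reticulum. P4HA1, P4HA2 and P4HA3 are the catalytic subunits of prolyl 4-hydroxylase, which makes the collagen triple helix stable, and PLOD1, PLOD2 and PLOD3 are lysyl hydroxylases that prepare collagen for cross-linking and, for PLOD3, glycosylation. In liver all 5 members tested fell, against 59.1% of all genes tested, with a median of -1.48. All 5 differences were below 0 under both other scalings, where PLOD3 alone of the 5 passed. PLOD3 had 5.47, 7.24, 9.34 and 10.3 TPM in SA livers, against 36.3, 29.9, 26 and 34.8 TPM in CON livers. The groups lay far apart, and PLOD3 fell by 1.87 (SE 0.23, adjusted p = 0.000151), and this held under each scaling. P4HA1 had 15.1, 3.22, 3.68 and 3.86 TPM in SA livers, against 15.5, 16.5, 14.4 and 21.02 TPM in CON livers. Here SA replicate 1 reached the level of CON animals, and P4HA1 fell by 1.496 (SE 0.40, adjusted p = 0.00873).

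P4HA2, P4HA3 and PLOD1 separated the diets completely in liver. For P4HA2 and P4HA3, which entered the test through the CON livers, the calls are a description. P4HA2 had 0.71, 2.5, 2.6 and 1.22 TPM in SA livers, against 4.98, 8.1, 5.26 and 7.6 TPM in CON livers, with a log2 difference of -1.48 (adjusted p = 0.00124). P4HA3 had 1.95, 0.4, 0.83 and 1.53 TPM in SA livers, against 5.4, 4.16, 3.38 and 3.18 TPM in CON livers, with a log2 difference of -1.25 (adjusted p = 0.00217). PLOD1 had 7.23, 3.77, 3.71 and 7.77 TPM in SA livers, against 13.1, 13.2, 14.8 and 15.6 TPM in CON livers, with a log2 difference of -1.25 (adjusted p = 0.0018). P4HA2 and P4HA3 are among 10 members that overlap another protein-coding gene in RefSeq (with JMJD1C, KDM4C, ALKBH2, EGLN1, RIOX1, RIOX2, OGFOD1 and ASPH). The strand used in counting is not given, so the values of these 10 are uncertain to that extent. PLOD2 was the exception in level: it had 0.46, 0.29, 0.54 and 0.4 TPM in SA livers, against 0.72, 1.99, 0.91 and 2.58 TPM in CON livers, and was not tested. The summed fibroblast markers of liver were 17.3 to 33.2 TPM in SA and 102 to 210 TPM in CON animals, and their part in these values was not tested.

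PLOD2 hydroxylates the collagen telopeptides, and it had 18.96, 51.4, 41.2 and 20.5 TPM in SA tail fat, against 68.8, 183, 25.5 and 30.9 TPM in CON tail fat. It was the highest of the 3 lysyl hydroxylases in each CON library, whereas PLOD3 was the highest in each SA library. CON replicate 2 stood far above the rest, the groups overlapped, and the log2 difference was -0.88 (adjusted p = 0.526). PLOD3 had 217, 78.5, 62.7 and 24.7 TPM in SA tail fat, against 32.6, 127, 17.8 and 20.1 TPM in CON tail fat. PLOD1 had 18.7, 10.5, 8.62 and 5.68 TPM in SA tail fat, against 4.35, 9.43, 4.0 and 4.13 TPM in CON tail fat. PLOD1 overlapped only through CON replicate 2 and PLOD3 through CON replicates 1 and 2, and neither the PLOD1 difference of 0.84 (adjusted p = 0.443) nor the PLOD3 difference of 1.02 (adjusted p = 0.519) passed. The ratio of PLOD2 to PLOD1 within a library had a median of 4.2 in SA and 11.6 in CON tail fat. P4HA1 had 14.96, 11.8, 8.3 and 4.84 TPM in SA tail fat, against 17.4, 54.3, 5.73 and 8.7 TPM in CON tail fat. P4HA2 had 10.4, 9.57, 6.84 and 2.54 TPM in SA tail fat, against 4.73, 9.82, 5.02 and 11.2 TPM in CON tail fat. The groups overlapped for both, and P4HA3 stayed under 1 TPM in every tail fat library. The summed fibroblast markers of tail fat were 2032, 554, 484 and 415 TPM in SA replicates 1 to 4. They were 721, 1860, 421 and 966 TPM in CON replicates 1 to 4, and their part in these values was not tested.

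**Figure D4:**
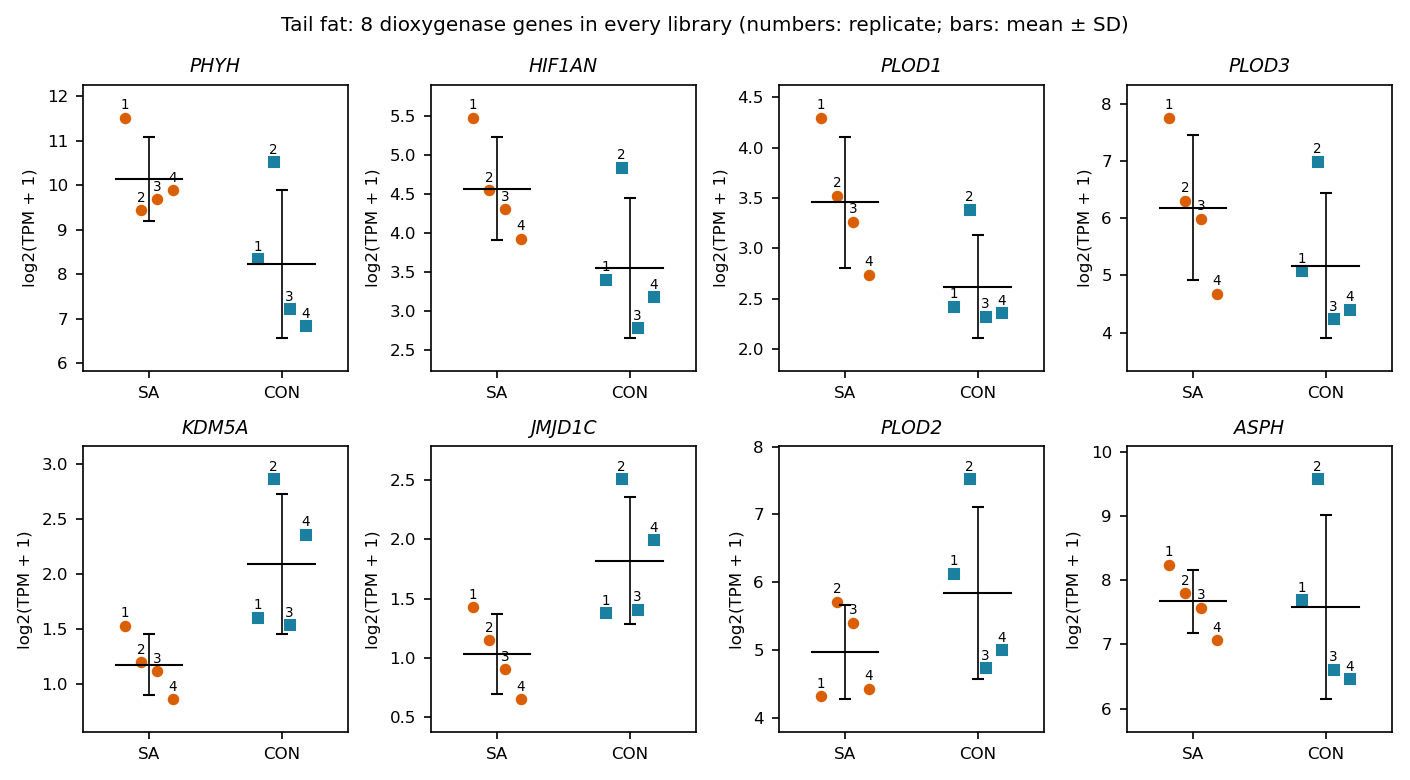
Level of PHYH, HIF1AN, PLOD1, PLOD3, KDM5A, JMJD1C, PLOD2 and ASPH in each tail fat library as log2(TPM + 1), with SA left of CON. CON replicate 2 was the highest CON library for each of the 8 genes, and SA replicate 1 was the highest SA library for all but PLOD2.

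In the brain tissues the collagen hydroxylases overlapped between diets except for P4HA3 in the hypothalamus-labelled tissue. There P4HA3 had 1.08, 1.31, 1.03 and 1.39 TPM in the hypothalamus-labelled SA libraries, against 1.52, 1.68, 3.21 and 1.42 TPM in CON. All SA libraries lay below all CON libraries there, and the log2 difference of -0.39 did not pass (adjusted p = 0.947). P4HA3 had 2.64, 2.53, 1.44 and 1.36 TPM in the pituitary-labelled SA libraries, against 2.82, 2.38, 1.94 and 1.94 TPM in CON. P4HA1 had 23.1, 20.9, 19.8 and 21.8 TPM in the hypothalamus-labelled SA libraries, against 18.1, 20.5, 20.7 and 24.3 TPM in CON. P4HA1 had 42.6, 26.7, 25.4 and 18.9 TPM in the pituitary-labelled SA libraries, against 25.8, 29.2, 22.4 and 24.1 TPM in CON. P4HA1 and PLOD2 were among the 3 members above 0 in the pituitary-labelled tissue, at 0.11 and 0.08 (adjusted p = 0.864 and 0.893), and both turned below 0 when SA replicate 1 was left out. P4HA2 had 4.73, 5.99, 3.48 and 5.8 TPM in the hypothalamus-labelled SA libraries, against 5.02, 3.61, 2.92 and 4.41 TPM in CON. P4HA2 had 11.1, 5.06, 4.97 and 2.52 TPM in the pituitary-labelled SA libraries, against 6.01, 4.94, 5.17 and 5.06 TPM in CON. Its SA libraries spread more widely than its CON libraries in the pituitary-labelled tissue. PLOD1 had 4.03, 10.03, 4.8 and 6.59 TPM in the hypothalamus-labelled SA libraries, against 3.79, 6.96, 20.6 and 9.57 TPM in CON. PLOD1 had 12.2, 15.7, 6.35 and 5.7 TPM in the pituitary-labelled SA libraries, against 15.4, 21.1, 11.2 and 8.25 TPM in CON. In neither tissue did the PLOD1 groups separate. PLOD2 had 14.7, 19, 12.1 and 15.7 TPM in the hypothalamus-labelled SA libraries, against 10.8, 16.3, 23.4 and 17.01 TPM in CON. PLOD2 had 41.1, 30.2, 38.5 and 25.9 TPM in the pituitary-labelled SA libraries, against 34.6, 36.1, 31.6 and 25.1 TPM in CON. PLOD2 was the highest lysyl hydroxylase in every pituitary-labelled library. PLOD3 had 8.22, 12.98, 12.2 and 11.7 TPM in the hypothalamus-labelled SA libraries, against 8.17, 9.74, 16.8 and 17.8 TPM in CON. PLOD3 had 13.9, 13.8, 10.2 and 6.66 TPM in the pituitary-labelled SA libraries, against 10.9, 16.7, 13.6 and 12.5 TPM in CON. The PLOD3 groups overlapped in both tissues.

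The TET enzymes oxidise 5-methylcytosine in DNA and are, with the JmjC demethylases, the members through which succinate is known to alter chromatin. All were low. TET1 had 1.56, 1.33, 1.15 and 0.49 TPM in the pituitary-labelled SA libraries, against 1.55, 1.35, 1.23 and 1.53 TPM in CON, the tissue in which it was tested (log2 difference -0.21), and 1.25, 0.88, 0.93 and 1.16 TPM in the hypothalamus-labelled SA libraries and 0.81, 1.24, 0.9 and 0.8 TPM in CON, where it did not pass the filter. TET2 had 4.3, 4.14, 4.92 and 5.22 TPM in the hypothalamus-labelled SA libraries, against 3.92, 5.26, 4.43 and 4.72 TPM in CON. TET2 had 6.37, 4.69, 3.98 and 1.86 TPM in the pituitary-labelled SA libraries, against 8.33, 4.13, 4.59 and 4.57 TPM in CON. In liver TET2 was at 0.13 to 0.58 TPM in SA animals, against 0.9 to 1.73 TPM in CON animals, without overlap but below the filter.

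TET3 was the member with the smallest p above 0 in the hypothalamus-labelled tissue. TET3 had 4.36, 4.08, 4.34 and 5.32 TPM in the hypothalamus-labelled SA libraries, against 3.76, 4.55, 2.68 and 3.67 TPM in CON. The groups overlapped, and the log2 difference of 0.25 did not pass (adjusted p = 0.947). TET3 had 1.85, 2.33, 1.81 and 1.03 TPM in the pituitary-labelled SA libraries, against 3.15, 1.91, 2.27 and 2.45 TPM in CON. TET3 had 1.03, 0.73, 0.89 and 0.9 TPM in SA livers, against 1.14, 1.07, 1.29 and 0.6 TPM in CON livers. In liver the groups overlapped, with a log2 difference of -0.09 in deposited TPM that turned to 0.43 after quantile scaling, where it passed, and to 0.60 after removal of mitochondrial and ribosomal RNA, where it did not.

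FTO and ALKBH5 remove methyl groups from adenosine in mRNA. FTO was highest in the brain tissues, at 65.4, 75.7, 68.3 and 78.7 TPM in the hypothalamus-labelled SA libraries, against 65.9, 69.04, 80.4 and 79.9 TPM in CON. FTO also had 101, 116, 64.5 and 31.5 TPM in the pituitary-labelled SA libraries, against 75.2, 98.8, 94.9 and 108 TPM in CON. FTO had 18.8, 2.29, 4.87 and 5.53 TPM in SA livers, against 19.9, 12.3, 9.72 and 11.96 TPM in CON livers. All of these groups overlapped, in liver because SA replicate 1 lay within the range of CON animals, and the log2 difference in liver was -0.99 with an interval of -2.08 to 0.10 (adjusted p = 0.0982). Without liver SA replicate 1 it was -1.48, with an adjusted p of 0.0036, the one library of the 8 whose removal gave a call. FTO had 25.9, 11.9, 10.8 and 5.7 TPM in SA tail fat, against 6.55, 17.2, 2.5 and 3.01 TPM in CON tail fat. It did not pass in tail fat either (log2 difference 0.96, interval -0.28 to 2.20, adjusted p = 0.478).

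ALKBH5 had 7.97, 3.2, 8.5 and 12.4 TPM in SA livers, against 13.8, 14, 14.1 and 16.8 TPM in CON livers. The groups did not overlap, and it fell by 0.91 in deposited TPM (SE 0.32, adjusted p = 0.0316), but its difference was 0.09 after removal of mitochondrial and ribosomal RNA, and the call was lost without any 1 of the 4 CON livers (-0.93 to -0.85). ALKBH5 had 51.6, 21.7, 23 and 21.6 TPM in SA tail fat, against 14.6, 33.8, 8.18 and 14.3 TPM in CON tail fat. The tail fat groups overlapped through CON replicate 2 (log2 difference 0.77, adjusted p = 0.509). ALKBH5 had 27.1, 29.2, 26.5 and 26.1 TPM in the hypothalamus-labelled SA libraries, against 24.3, 26.96, 26.7 and 29.5 TPM in CON. ALKBH5 had 31.7, 37.3, 24.1 and 10.8 TPM in the pituitary-labelled SA libraries, against 32.5, 27.7, 32.9 and 37.5 TPM in CON. The brain groups overlapped.

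Of the other ALKBH enzymes, ALKBH2 and ALKBH3 repair alkylated DNA, ALKBH1 and ALKBH8 modify transfer RNA, ALKBH4 acts on actin, ALKBH7 works in mitochondria and ALKBH6 is the least known. In liver 5 of the 9 ALKBH and FTO members fell, against 59.1% of all genes tested. ALKBH6 differed by -1.58 (adjusted p = 0.00391), ALKBH2 by -1.04 (adjusted p = 0.0202), ALKBH1 by -1.02 (adjusted p = 0.00284) and ALKBH4 by -0.93 (adjusted p = 0.00277), and the ALKBH2 call was lost without CON replicate 3 (-0.96). ALKBH3, ALKBH7 and ALKBH8 did not pass, at -0.13, -0.72 and -0.02, and were at 0.70, 0.14 and 0.57 after quantile scaling, where they did not pass either. In tail fat the SA libraries of ALKBH7 all lay above its CON libraries. The share of all genes whose diet groups do not overlap was not counted, in this or any other tissue. It had 51.8, 43.7, 39.1 and 50.6 TPM in SA tail fat, against 36.2, 30.2, 15.8 and 33.1 TPM in CON tail fat. The difference of 0.72 did not pass (adjusted p = 0.472).

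The JmjC demethylases remove methyl groups from histone lysines. KDM4A, KDM4B and KDM4C act on the lysines of heterochromatin and of gene bodies, KDM3A, KDM3B and JMJD1C are the KDM3 group, which acts on heterochromatin marks, KDM5A and KDM5B act on promoter marks, KDM6A and KDM6B act on the Polycomb mark, KDM2A acts near CpG islands, and KDM7A, PHF2 and PHF8 carry a PHD finger that reads the promoter mark. In liver 12 of the 14 fell, against 59.1% of all genes tested, and KDM4C and KDM6B did not pass. KDM4A had 1.59, 1.68, 1.72 and 1.55 TPM in SA livers, against 15.7, 12.2, 10.3 and 10.4 TPM in CON livers. This was the largest difference of any member in liver, at -2.30 (SE 0.18, adjusted p = 3.43e-05), with no overlap. KDM3B had 1.25, 0.95, 1.19 and 0.85 TPM in SA livers, against 4.37, 4.31, 4.64 and 4.66 TPM in CON livers. PHF8 had 0.73, 0.7, 0.51 and 0.57 TPM in SA livers, against 3.39, 2.74, 3.43 and 3.17 TPM in CON livers. KDM7A had 0.28, 0.14, 0.22 and 0.22 TPM in SA livers, against 1.11, 1.17, 1.13 and 1.21 TPM in CON livers. None of these overlapped, and the differences were -1.42, -1.36 and -0.83 (SE 0.15, 0.14 and 0.11, adjusted p = 7.12e-05, 6.89e-05 and 0.000182). They also held under both other scalings. KDM3B, PHF8 and KDM7A entered the test through the CON livers, however, so their calls are a description.

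The next smallest p-values belonged to PHF2 and KDM6A. PHF2 had 2.31, 1.58, 2.3 and 2.55 TPM in SA livers, against 8.2, 5.97, 6.44 and 7.57 TPM in CON livers. KDM6A had 1.06, 0.85, 0.99 and 0.95 TPM in SA livers, against 3.29, 3.0, 4.15 and 2.82 TPM in CON livers. Both separated the diets, with differences of -1.34 (adjusted p = 0.00019) and -1.13 (adjusted p = 0.000219). KDM6A, like KDM5A below, entered the test through the CON livers, so both of these calls are a description. KDM3A, which is induced by HIF, had 2.11, 2.52, 2.06 and 1.7 TPM in SA livers, against 4.55, 4.97, 4.86 and 4.54 TPM in CON livers. Its groups did not overlap, and it fell by 0.89 (SE 0.15, adjusted p = 0.000754). KDM6B had 1.79, 1.1, 1.49 and 1.3 TPM in SA livers, against 1.94, 1.73, 2.35 and 3.19 TPM in CON livers. Its groups overlapped, and its difference of -0.44 (adjusted p = 0.0568) turned to 0.18 after quantile scaling and to 0.33 upon removal of mitochondrial and ribosomal RNA, and passed only without SA replicate 1 (-0.51, adjusted p = 0.0476). KDM5B, KDM5A, KDM4B, JMJD1C and KDM2A fell by 1.07, 1.04, 0.94, 0.67 and 0.64 with complete separation of the groups, but KDM2A turned to 0.16 after quantile scaling and 0.33 without mitochondrial and ribosomal RNA, and JMJD1C to 0.07 in the second. KDM4C ranged from 0.25 to 4.68 TPM in SA livers, against 3.08 to 3.34 TPM in CON livers, and its difference of -0.83 did not pass (adjusted p = 0.085). Without SA replicate 2, the library with 4.68 TPM, it was -1.24 with an adjusted p of 0.00139.

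In tail fat no JmjC member passed. KDM5A had 1.89, 1.3, 1.17 and 0.82 TPM in SA tail fat, against 2.04, 6.26, 1.9 and 4.12 TPM in CON tail fat. Every SA library lay below every CON library, but the difference of -0.91 (interval -1.77 to -0.06) did not pass (adjusted p = 0.327). JMJD1C had 1.69, 1.22, 0.87 and 0.57 TPM in SA tail fat, against 1.6, 4.68, 1.65 and 2.97 TPM in CON tail fat, with a difference of -0.79 (adjusted p = 0.354) and overlap of SA replicate 1. After removal of mitochondrial and ribosomal RNA both passed, KDM5A at -1.35 and JMJD1C at -1.23. KDM3A had 8.19, 2.02, 2.58 and 1.86 TPM in SA tail fat, against 2.01, 7.4, 3.6 and 8.94 TPM in CON tail fat. KDM6B had 4.05, 2.32, 1.8 and 1.25 TPM in SA tail fat, against 4.21, 6.23, 1.48 and 3.21 TPM in CON tail fat. Their groups overlapped. Of the 12 JmjC members tested in tail fat 2 had a difference above 0, where 46.5% of all genes tested did, and the groups of members were not tested against each other.

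In the brain tissues no JmjC member passed. KDM4C was among the 3 smallest p above 0 in the hypothalamus-labelled tissue, with 9.87, 12.1, 12.7 and 13.7 TPM in the hypothalamus-labelled SA libraries, against 8.58, 10.4, 10.7 and 11.7 TPM in CON (log2 difference 0.21, adjusted p = 0.947). KDM7A and KDM4B were among the 3 below 0 in the pituitary-labelled tissue. KDM7A had 2.29, 1.94, 2.08 and 0.89 TPM in the pituitary-labelled SA libraries, against 3.09, 2.28, 2.59 and 3.26 TPM in CON. KDM4B had 13.4, 15.3, 11.9 and 6.0 TPM in the pituitary-labelled SA libraries, against 15.5, 16.6, 15.9 and 15.1 TPM in CON. Their differences were -0.47 and -0.48 (adjusted p = 0.747 and 0.747), and KDM7A and KDM4B were lowest in SA replicate 4. KDM3A had 12.8, 12.9, 11.8 and 12.3 TPM in the hypothalamus-labelled SA libraries, against 10.7, 12.01, 11.3 and 12.5 TPM in CON. KDM3A had 10.3, 11.8, 8.65 and 5.2 TPM in the pituitary-labelled SA libraries, against 11.3, 9.78, 10.4 and 12.1 TPM in CON. KDM6B had 2.05, 2.73, 2.49 and 2.45 TPM in the hypothalamus-labelled SA libraries, against 2.14, 2.01, 2.34 and 2.53 TPM in CON. The groups overlapped for these as well. KDM6B had 4.01, 4.38, 3.01 and 1.64 TPM in the pituitary-labelled SA libraries, against 4.12, 2.94, 3.29 and 4.3 TPM in CON, again with overlap.

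Of the other protein hydroxylases, JMJD6 is a lysyl hydroxylase of splicing factors, RIOX1 and RIOX2 hydroxylate histidines of ribosomal proteins, OGFOD1 hydroxylates a proline of the small ribosomal subunit and ASPH hydroxylates EGF-like domains. In liver 4 of the 5 fell, against 59.1% of all genes tested. Of the 4, RIOX1 entered the test through the CON livers, so that its call is a description. JMJD6 had 2.85, 2.46, 4.17 and 1.69 TPM in SA livers, against 4.08, 4.86, 7.19 and 13.4 TPM in CON livers. SA replicate 3 lay just above the lowest CON liver, and JMJD6 fell by 1.06 (SE 0.34, adjusted p = 0.019). OGFOD1, RIOX2 and RIOX1 fell by 1.40, 0.75 and 0.49 (adjusted p = 0.000881, 0.03 and 0.0108), of which the RIOX2 call was lost without SA replicate 1 or 3 or CON replicate 1, 3 or 4 (-0.73 to -0.57), and RIOX1 and RIOX2 turned above 0 under both other scalings (0.07 and 0.07 after quantile scaling). ASPH had 39.4, 34.7, 24.4 and 43.5 TPM in SA livers, against 44.9, 59.7, 44.8 and 29.9 TPM in CON livers, with overlap and a difference of -0.32 that did not pass (adjusted p = 0.344) and was 0.72 after quantile scaling.

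ASPH was the most abundant of these 5 in all 8 groups by mean level. ASPH had 113, 99.8, 109 and 136 TPM in the hypothalamus-labelled SA libraries, against 102, 116, 63.4 and 98.8 TPM in CON, with a difference of 0.29 that was among the 3 smallest p above 0 (adjusted p = 0.947). ASPH had 302, 221, 189 and 133 TPM in SA tail fat, against 205, 761, 96.6 and 86.9 TPM in CON tail fat. CON replicate 2 was again the highest library. JMJD6 had 16.8, 5.89, 3.4 and 2.75 TPM in SA tail fat, against 4.27, 16.2, 1.66 and 3.59 TPM in CON tail fat. JMJD6 had 7.93, 10.2, 8.12 and 12.2 TPM in the hypothalamus-labelled SA libraries, against 8.82, 8.41, 13.1 and 10.9 TPM in CON. JMJD6 had 18.1, 15.4, 8.94 and 6.22 TPM in the pituitary-labelled SA libraries, against 12.7, 14.7, 13 and 14.03 TPM in CON. No JMJD6 difference outside liver passed.

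Whether the diet difference itself differed among the 4 tissues was tested by the interaction of diet and tissue in one limma fit. That fit treats the 32 libraries as independent, although the tissues came from 4 sheep per diet, and pools 1 spread over the tissues. The SD of PHYH was 12.8 TPM in hypothalamus-labelled SA libraries and 1060 TPM in SA tail fat. The p-values hold only under those assumptions. It passed for 11 of the 44 members, against 27% of all 16360 genes tested. The 11 were PHYH (F = 9.78, adjusted p = 0.00192), HIF1AN (F = 8.93, adjusted p = 0.00273), PLOD3, KDM4A, P4HA3, P4HA2, PLOD1, ALKBH4, PHF2, KDM5A and ALKBH6. PHYH, HIF1AN, PHF2 and KDM5A passed under each of the 3 scalings. For PHYH the differences were -0.04 in the hypothalamus-labelled tissue, -0.42 in the pituitary-labelled tissue, -1.96 in liver and 1.91 in tail fat. HIF1AN likewise differed by -1.52 in liver and by 1.02 in tail fat, and PLOD3 by -1.87 and 1.02. The number that passed rested on single libraries: it was 6 without liver SA replicate 2 or 3 or CON replicate 1, 17 without pituitary-labelled SA replicate 4 and 24 without tail fat CON replicate 2. The share of all genes in those fits was not set beside these counts.

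**Figure D5:**
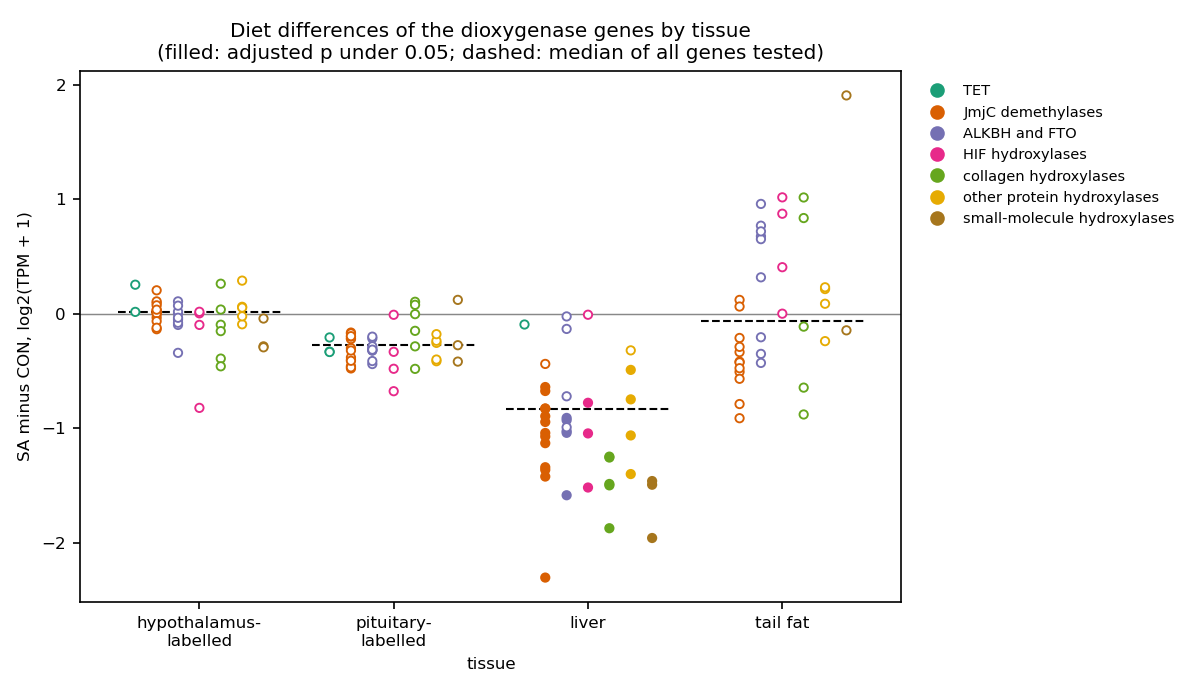
Log2 difference (SA minus CON) of each member tested in each of the 4 tissues, coloured by role, with filled points for an adjusted p under 0.05 and dashed lines at the median of all genes tested. PHYH, HIF1AN and PLOD3 lay below 0 in liver, at -1.96, -1.52 and -1.87, and above 0 in tail fat, at 1.91, 1.02 and 1.02, where none passed.

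The CON libraries alone were used to ask where each member is expressed. Against brain tissue, liver had 4 of the 44 members higher and 24 lower, in a comparison in which 75.3% of all genes passed, 16.6% higher and 58.7% lower (limma). The 4 were BBOX1 at a log2 difference of 4.79, PHYH at 4.26, PLOD3 at 1.23 and P4HA3 at 0.70, of which BBOX1, PHYH and PLOD3 held under all 3 scalings. Among the lower members the 6 with the largest differences were PLOD2 at -3.28, FTO at -2.58, KDM3B at -1.73, KDM4B at -1.64, JMJD1C at -1.54 and ALKBH6 at -1.32, and all 6 held. The split between higher and lower did not hold: it was 17 to 9 after quantile scaling (34.6% of all genes higher and 37.1% lower) and 3 to 35 without mitochondrial and ribosomal RNA (13.4% higher and 69.8% lower), with the median of all genes at -0.87 in deposited TPM. BBOX1 thus had 60.8 to 135 TPM in CON livers, against 1.7 to 3.51 TPM in the CON brain libraries. ALKBH6 had 23.7, 16.5, 10.98 and 9.08 TPM in CON livers, against 22.7, 21.7, 40.4 and 43.2 TPM in the hypothalamus-labelled CON libraries and 35.8, 50.6, 42.1 and 50.8 TPM in the pituitary-labelled CON libraries. JMJD1C had 2.96, 3.48, 3.06 and 1.91 TPM in CON livers, against 8.6, 9.83, 7.9 and 9.76 TPM in the hypothalamus-labelled CON libraries and 17.2, 9.93, 9.6 and 9.52 TPM in the pituitary-labelled CON libraries. JMJD1C was lower in every CON liver than in every CON brain library, whereas for ALKBH6 CON liver replicate 1 lay above hypothalamus-labelled replicates 1 and 2. KDM4B had 5.35, 3.96, 3.42 and 3.89 TPM in CON livers, against 10.6, 12.2, 18.97 and 16.3 TPM in the hypothalamus-labelled CON libraries and 15.5, 16.6, 15.9 and 15.1 TPM in the pituitary-labelled CON libraries. KDM3B, whose CON liver values are given above, had 16.2, 17.01, 16.7 and 18.6 TPM in the hypothalamus-labelled CON libraries and 16.02, 15.7, 17.7 and 20.8 TPM in the pituitary-labelled CON libraries. KDM4B and KDM3B were lower in every CON liver than in every CON brain library.

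Against brain tissue, tail fat had 5 members higher and 29 lower, where 73.8% of all genes passed, 14.1% higher and 59.7% lower. Higher under all 3 scalings were PHYH at 1.62, ALKBH3 at 1.54, PLOD3 at 1.38, PLOD2 at 1.27 and P4HA2 at 0.56. ALKBH3 had 22.9, 21.6, 13.9 and 16.3 TPM in CON tail fat, against 4.59, 4.7, 6.9 and 4.51 TPM in the hypothalamus-labelled CON libraries and 11.1, 5.02, 4.71 and 5.64 TPM in the pituitary-labelled CON libraries. It had 8.15, 4.77, 6.38 and 5.2 TPM in CON livers, so tail fat lay above all other CON tissues without overlap. The largest differences below 0 belonged to FTO at -3.66, TMLHE at -2.21, KDM3B at -2.05, KDM4A at -1.98, RIOX2 at -1.87 and EGLN1 at -1.78, which held under all 3 scalings. RIOX2 had 4.11, 7.05, 2.04 and 4.26 TPM in CON tail fat, against 23.3, 24.5, 17.5 and 19.8 TPM in the hypothalamus-labelled CON libraries and 17.5, 12.7, 12.4 and 16.5 TPM in the pituitary-labelled CON libraries. KDM4A had 1.45, 9.97, 1.32 and 3.85 TPM in CON tail fat, against 10.04, 13.4, 15.7 and 16.9 TPM in the hypothalamus-labelled CON libraries and 18.3, 17.1, 16.98 and 17.5 TPM in the pituitary-labelled CON libraries. KDM3B had 2.5, 11.5, 1.04 and 3.19 TPM in CON tail fat. CON replicate 2 was the highest tail fat library for RIOX2, KDM4A and KDM3B, and for KDM4A its 9.97 TPM came close to the lowest brain value, 10.04 TPM. The split was 15 to 11 after quantile scaling (38.6% of all genes higher and 35% lower) and 8 to 29 without mitochondrial and ribosomal RNA (18% higher and 57.5% lower), and the median of all genes was -0.93.

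Between liver and tail fat 10 members were higher in liver and 5 lower, where 44.1% of all genes passed, 23.3% higher and 20.8% lower, and the median of all genes was 0.01. BBOX1 at 6.41, PHYH at 2.64, TMLHE at 2.18, P4HA3 at 1.87 and KDM4A at 1.64 were higher in liver under all 3 scalings, and PLOD1 at 1.30 in deposited TPM without holding in all. PLOD2 at -4.56, ASPH at -2.10, ALKBH3 at -1.46, EGLN2 at -1.06 and ALKBH7 at -0.81 were lower in liver under all 3 scalings. ASPH had 44.9, 59.7, 44.8 and 29.9 TPM in CON livers, against 205, 761, 96.6 and 86.9 TPM in CON tail fat. ALKBH7 had 21.4, 18.6, 10.6 and 12.7 TPM in CON livers, against 36.2, 30.2, 15.8 and 33.1 TPM in CON tail fat. ASPH did not overlap between the tissues, whereas ALKBH7 did, through tail fat replicate 3. The split was 10 to 8 after quantile scaling (24.8% of all genes higher and 32.2% lower) and 6 to 15 without mitochondrial and ribosomal RNA (16.9% higher and 40.6% lower). Without tail fat CON replicate 2, 24 members were higher in liver and 5 lower, without the share of all genes in that fit beside them. Between the hypothalamus-labelled and the pituitary-labelled CON tissue 0 of 44 members passed, against 13.1% of all genes (4.48% higher and 8.63% lower), and 2 members had an unadjusted p under 0.05, against 22.6% of all genes. The smallest adjusted p was 0.152, for TET3 at 0.43.

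The genes around these enzymes were described from lists chosen with earlier results of these data known. Over the 9 lists 79 of 121 genes tested fell in liver and 2 rose, against 59.1% of all genes lower and 5.21% higher. After quantile scaling 21.1% of all genes were lower and 16.3% higher, and 12.6% and 15.9% without mitochondrial and ribosomal RNA. The liver counts below stand against those shares, and no list was tested against all genes. In liver the enzymes that make and use succinate and 2-oxoglutarate fell in 12 of 23 tested and rose in 0, with a median of -1.28, whereas 4 were higher and 9 lower after quantile scaling. SDHA, the catalytic subunit of succinate dehydrogenase, averaged 10.8 ± 1.27 TPM in SA and 116 ± 33.8 TPM in CON livers (SD, n = 4 each), a log2 difference of -3.28. SDHC, a membrane anchor of the same complex, differed by -2.76, and DLST, a subunit of the 2-oxoglutarate dehydrogenase complex, by -2.32. All 3 also passed in the same direction under both other scalings.

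Of the HIF pathway regulators 6 of 6 fell, with a median of -1.55, and 4 were lower after quantile scaling and 3 without mitochondrial and ribosomal RNA. HIF1A, the oxygen-regulated subunit, differed by -1.78, its partner ARNT by -1.65 and the ubiquitin ligase scaffold CUL2 by -1.45, and HIF1A and ARNT passed under all 3 scalings. Of the 19 HIF target genes tested 9 fell and 1 rose, with a median of -0.83, the same as for all genes. BHLHE40, PGK1 and ERO1A differed by -2.44, -2.09 and -2.04, and ANKZF1, the gene that rose, by 0.82.

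Of the 19 collagen genes and partners of the collagen hydroxylases 16 fell in liver and 0 rose, with a median of -1.49, and 13 were lower and 1 higher after quantile scaling. COL1A2, COL4A1 and P3H2 differed by -2.68, -2.28 and -1.39. Of the 12 genes of carnitine and phytanate metabolism 5 fell, with a median of -0.75, among them CPT2 at -2.36, CRAT at -1.53 and CPT1B at -0.96, while after quantile scaling 2 were higher and 1 lower. Of the 17 histone methyltransferases 15 fell, led by NSD1, EZH1 and NSD3, against 2 lower and 1 higher after quantile scaling, and both flavin-dependent histone demethylases fell, KDM1A by 1.57 and KDM1B by 1.22. Of the 16 genes that write or read DNA and RNA methylation 11 fell, led by DNMT1, YTHDF2 and YTHDC1, against 3 lower and 1 higher after quantile scaling. NSD1 averaged 0.77 TPM and DNMT1 0.397 TPM in SA livers, under the 1 TPM of the filter. Of 7 other 2-oxoglutarate dioxygenases 3 fell, namely OGFOD3, JMJD4 and JMJD7, against 0 lower after quantile scaling, and RSBN1 rose by 0.80. In the diet comparison of the other tissues 0 genes of these 9 lists passed (limma), and 22 of 123 in tail fat, 1 of 136 in the pituitary-labelled and 0 of 134 in the hypothalamus-labelled tissue had an unadjusted p under 0.05. Over all genes tested that share was 14.3%, 1.51% and 3.49% in the same order.

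The same lists were described between the tissues of CON animals. Of all genes tested 16.6% were higher and 58.7% lower in liver than in brain tissue. In tail fat 14.1% were higher and 59.7% lower than in brain tissue. Against tail fat, liver had 23.3% higher and 20.8% lower. Of the 12 genes of carnitine and phytanate metabolism 11 were higher in liver than in brain tissue and 1 lower, and 10 were higher in liver than in tail fat and 0 lower. Among them SLC27A2, a very long chain fatty acid transporter, differed from brain tissue by 7.74, the carnitine carrier SLC25A20 by 3.33 and HACL1, which acts after PHYH in the breakdown of phytanic acid, by 2.67. The gene that was lower was PEX7, the import receptor for PHYH, at -0.99, which did not pass after quantile scaling (-0.09). Of 22 collagen genes and partners 18 were higher in tail fat than in brain tissue and 2 lower, led by COL3A1 at 6.54, COL4A1 at 5.15 and COL4A2 at 4.07, and TMEM38B and P3H2 were lower at -1.58 and -1.10. P3H2 turned to 0.08 after quantile scaling. Of the same 22 genes, 3 were higher and 15 lower in liver than in tail fat.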

How the data were processed

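RNA-seq of 32 libraries was read from 1 deposited table of 30722 genes. Its values are TPM that the authors deposited to 2 decimals, not scaled between libraries; they sum to 936939 to 987320 per library over the genes listed. Libraries were stranded and made from oligo(dT)-selected RNA, per the labels' protocols. Tools named are fastp, HISAT2 and RSEM, per the submitters' processing notes; versions, genome build, annotation and strand setting were not given in the sources used here. TPM keep no read depth, so no interval on counting error is given. Of the genes, 13350 carry no name and could hold a member, and 64 names occur more than once. The 8 deposited columns of group means were not used.

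Groups were taken from the labels. Each comparison was fitted across all genes with limma 3.58.1 in R 4.3.3 on log2(TPM + 1), with intensity trend and robust variances, over genes that reached 1 TPM in 4 or more libraries of the fit. Benjamini-Hochberg adjustment ran over all genes tested, with a threshold of 0.05. Fold changes are on that log2 scale, which understates those of low genes, and intervals are 95%. Diet was tested within each tissue, tissue within CON animals, and their interaction over all 32 libraries. The brain reference of the tissue comparisons is the mean of both brain groups. The fits were tested on simulated data.

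The member list, which uses names and no values, the gene lists and the tests were drawn up with earlier results of these data known. Values per library are given for 21 members fixed by role, for the 8 smallest p per direction where more than 16 members passed a diet comparison, for the 3 smallest p per direction where none passed, and for the 6 largest differences per direction in a tissue comparison. For genes outside the family, the 3 smallest p per direction in each list are named. Alternatives were a pseudocount of 0.1, no filter and a stricter filter, quantile scaling, removal of 37 mitochondrial and 57 ribosomal RNA genes, limma array weights, the replicate number as a block (and, added later, the number within each diet), 1 fit of all 32 libraries, and each library left out in turn. Tables and figures were made with Python 3.11.15, pandas 2.3.3 and matplotlib 3.10.9.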

Additional observations from a re-analysis of the deposited data

Results flagged for a closer look

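Of 147 groups of 4 libraries considered, those with every library under 1 TPM were passed over. In 12 of the rest 1 library lay far from the other 3 by Dixon's criterion, which chance meets in about 1 of 20 groups checked. How many groups were checked was not counted. In CON tail fat replicate 2 did so for PHYH at 1467.52 TPM (others 113 to 321), PLOD3 at 126.51 TPM (others 17.8 to 32.6), EGLN1 at 46.02 TPM (others 6.68 to 11.5), HIF1AN at 27.63 TPM (others 5.89 to 9.58) and PLOD1 at 9.43 TPM (others 4.0 to 4.35). In SA tail fat replicate 1 did so for PHYH at 2929.45 TPM (others 693 to 942). In SA livers replicate 1 stood out for P4HA1 at 15.13 TPM (others 3.22 to 3.86), and in CON livers replicate 4 for ALKBH5 at 16.75 TPM (others 13.8 to 14.1). In the pituitary-labelled CON libraries replicate 1 stood out for ALKBH3 at 11.06 TPM (others 4.71 to 5.64) and JMJD1C at 17.2 TPM (others 9.52 to 9.93). In the hypothalamus-labelled CON libraries replicate 3 stood out for ALKBH3 at 6.9 TPM (others 4.51 to 4.7) and P4HA3 at 3.21 TPM (others 1.42 to 1.68).

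Limma's interaction test of diet and tissue, with 3 degrees of freedom, passed for 11 of the 44 members. That share was close to the 27% of all genes that passed. Its p-values hold only under the assumptions given with the test above. Only PHYH, HIF1AN, PHF2 and KDM5A passed under each of the 3 scalings. F was 9.7772 for PHYH, 8.9259 for HIF1AN, 6.4893 for PLOD3, 6.3817 for KDM4A, 5.4779 for P4HA3, 5.268 for P4HA2, 4.9097 for PLOD1, 4.6507 for ALKBH4, 4.6231 for PHF2, 4.5266 for KDM5A and 4.4738 for ALKBH6.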

How the results depend on the processing

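Most values for single members kept their direction and side of the threshold, in 1664 of the recomputed values, against 121 that no longer passed, 19 that newly passed and 16 that turned. Over the fits that left out 1 library each, the members called numbered 24 to 33 in liver, 0 to 1 in tail fat, 0 to 0 in either brain tissue, 6 to 24 for the interaction, 27 to 31 for liver against brain tissue, 31 to 40 for tail fat against brain tissue, 13 to 29 for liver against tail fat and 0 to 1 for the hypothalamus-labelled against the pituitary-labelled tissue. The high ends of 1, 24, 31, 40, 29 and 1 came without tail fat CON replicate 2, that of liver without liver SA replicate 1. Quantile scaling called 12 members in liver and 3 between the brain tissues. Without mitochondrial and ribosomal RNA 7 were called in liver, 2 in tail fat, 7 for the interaction and 1 between the brain tissues. Array weights called 1 in the pituitary-labelled diet comparison, 8 in tail fat, 36 for the interaction and 9 between the brain tissues. In tail fat they called 2839 of all genes, against 78 in the main fit. Where no share of all genes is given for a setting, its member counts are not a result about the family. In tail fat the fit of all 32 libraries, which pools 1 spread over the tissues, called 4 (PHYH, HIF1AN, KDM5A and JMJD1C). Leaving out CON replicate 2 and SA replicate 1 together called 1. With the replicate number as a block 1 member was called in tail fat (PHYH, 1.91, adjusted p = 0.00197) and 31 in liver (without BBOX1 and RIOX2, adjusted p = 0.068 and 0.0502, and with FTO, 0.0378). For the interaction the block lost KDM5A (adjusted p = 0.0505) and added OGFOD1 (0.0436). The calls of the other comparisons did not move. Same-numbered SA and CON libraries deviated from their group means with correlations of -0.342 to 0.289, so the numbers were not taken to pair the samples. Same-numbered SA libraries of both brain tissues correlated at 0.125 to 0.352 and those of CON at -0.299 to 0.079, a hint from the data, not the design, that some numbers mark 1 sheep. A block of the number within each diet, added after seeing the data, called 13 for the interaction (BBOX1 and OGFOD1 added, 0.0497 and 0.0459). Over all genes tail fat calls ranged from 78 as reported to 0 with no filter, 1 with the stricter filter and 2839 with array weights. Of the members that the naming rule took for liver, those that turned were EGLN2 (0.9342 quantile, 1.0631 without mitochondrial and ribosomal RNA, and -0.1428 to 0.1217 without 1 library, above 0 without SA replicate 2 or 3 or CON replicate 1 or 2), EGLN3 (0.1356 and 0.2639 under the same scalings), TET3 (0.4346 and 0.5998), KDM6B (0.1832 and 0.3315) and ALKBH5 (0.086 without mitochondrial and ribosomal RNA); KDM2A, RIOX1, RIOX2, ALKBH3, ALKBH7, ALKBH8 and ASPH also lay above 0 under both scalings, and JMJD1C without mitochondrial and ribosomal RNA. In the pituitary-labelled tissue, leaving out 1 library moved P4HA1 between -0.1034 (SA replicate 1) and 0.2738 (SA replicate 4), and PLOD2 between -0.0275 (CON replicate 4) and 0.1976 (SA replicate 4), with -0.0191 without SA replicate 1. The cause of these changes was not tested. Depth is unknown, so members near 1 TPM carry an error that these tables do not show.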
